A study of Mus musculus with 12 samples.

Results

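The solute carrier (Slc) genes described here are the 83 best-expressed of 285 Slc genes measured, among 17097 genes in all, in cell populations isolated from the mouse small intestine. A gene entered the search when its annotated symbol starts with Slc and a family number; the mitochondrial Slc25a family and Slc12a2, Slc14a1, Slc18a1 and Slc18a2 were left out. Members were then chosen by their level: the mean log2 value of at least 1 of the 6 populations had to be 8 or more, with 1 probe set used per gene, that with the highest mean over the 12 arrays. A probe set is a group of array probes against 1 transcript, and its value is a background-corrected, normalized log2 brightness (RMA). Because these same arrays selected the members, their high levels are a description and carry no test.

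The 6 populations were Lgr5 High cells with Mex3a High, Low or Neg and Lgr5 Low cells with the same 3 Mex3a gates, each measured in 2 biological replicates called MR793 and MR820, so n = 2 arrays per population. All were untreated primary cells, and total RNA of 2000 cells per sample was amplified for 22 cycles. The reporter or antibody used for the isolation and the strain and age of the mice are items not given in the sources used here. Mex3a makes a protein that binds RNA, Lgr5 is the receptor by which stem cells of the intestinal crypt are known, and the design asks how cells with different Mex3a levels differ within each Lgr5 level.

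Solute carriers are membrane proteins that move sugars, amino acids, ions, metals, vitamins and lipids across membranes, by facilitated diffusion or coupled to the gradient of an ion. In the intestine, enterocytes carry absorptive members on the brush border, such as the sodium-glucose cotransporter Slc5a1 and the neutral amino acid carrier Slc6a19, and other members on the basolateral side. Crypt cells need carriers for their own growth, such as the cationic amino acid carrier Slc7a1 and the heavy chain Slc3a2. Not all members sit on the cell surface: many Slc35 and Slc37 carriers, several Slc30 zinc carriers, Slc39a7 and Slc9a8 belong to the endoplasmic reticulum, the Golgi or other inner membranes. Slc9a3r1 encodes the scaffold protein NHERF1 and Slc2a4rg-ps is a pseudogene, so 2 members are no carriers, and the group is called well-expressed Slc genes here.

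Of the 285 genes, 29.1% reached the level of 8, against 34.7% of all 17097 genes. The members just inside the threshold were Slc7a2, with a highest population mean of 8.01, Slc35b3 with 8.10 and Slc22a12 with 8.10, and the genes just outside were Slc32a1 with 7.98, Slc6a4 with 7.98 and Slc39a13 with 7.97. Several carriers known for absorption in enterocytes stayed below it: the highest population mean was 5.52 for the peptide carrier Slc15a1, 6.10 for the glucose carrier Slc2a2, 6.97 for the fructose carrier Slc2a5, 6.07 for the sodium-proton exchanger Slc9a3 and 4.13 for the ileal bile acid carrier Slc10a2. Values of different probe sets depend on their probes and cannot be ranked against each other, and a low value of 1 probe set does not show that a transcript was missing. A level of 8 or more in all 6 populations was found for 55 members and in only some for 28; without the array described next, 63 of the 83 were at 8 or more in all populations. The 28 met the rule through the populations where they were high, which favours a difference, so calls among them are described and not counted as support.

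The data had 1 array that stood apart, Mex3a High Lgr5 High of MR793. Over all genes it correlated with the others at 0.892 to 0.914, against 0.966 to 0.996 among the rest, and at 0.288 to 0.578 over the 83 members, against 0.511 to 0.971. On it 64 of the 83 members were lower than on the MR820 array of the same population, by a median log2 difference of -0.56, and 30 members differed by more than 1. The difference ran from -3.55 for Slc35a1, a CMP-sialic acid carrier of the Golgi with 5.61 against 9.16, to 1.29. The counts of members that passed a test are therefore given with and without this array; without it Slc22a12 left the members and Slc39a10 entered, and 83 members remained in number. Lgr5 itself was at 6.37 to 8.05 on the Lgr5-low arrays and higher on every Lgr5-high array, up to 10.21, while the Mex3a probe set was dim everywhere, at 5.44 to 6.35, with the highest value on the array that stood apart. In MR820 the Mex3a values did not follow the Mex3a gates: they were 5.84 with Mex3a high and 5.91 with Mex3a negative in Lgr5-high cells, and 5.57 and 5.60 in Lgr5-low cells, so the Mex3a gates are used as labelled. The arrays came as 3 strips, and a strip is a labelled unit of arrays. Strip 1 held Lgr5-high arrays only, strip 3 Lgr5-low arrays only, and strip 2 held 2 arrays of each Lgr5 gate.

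**Figure D1:**
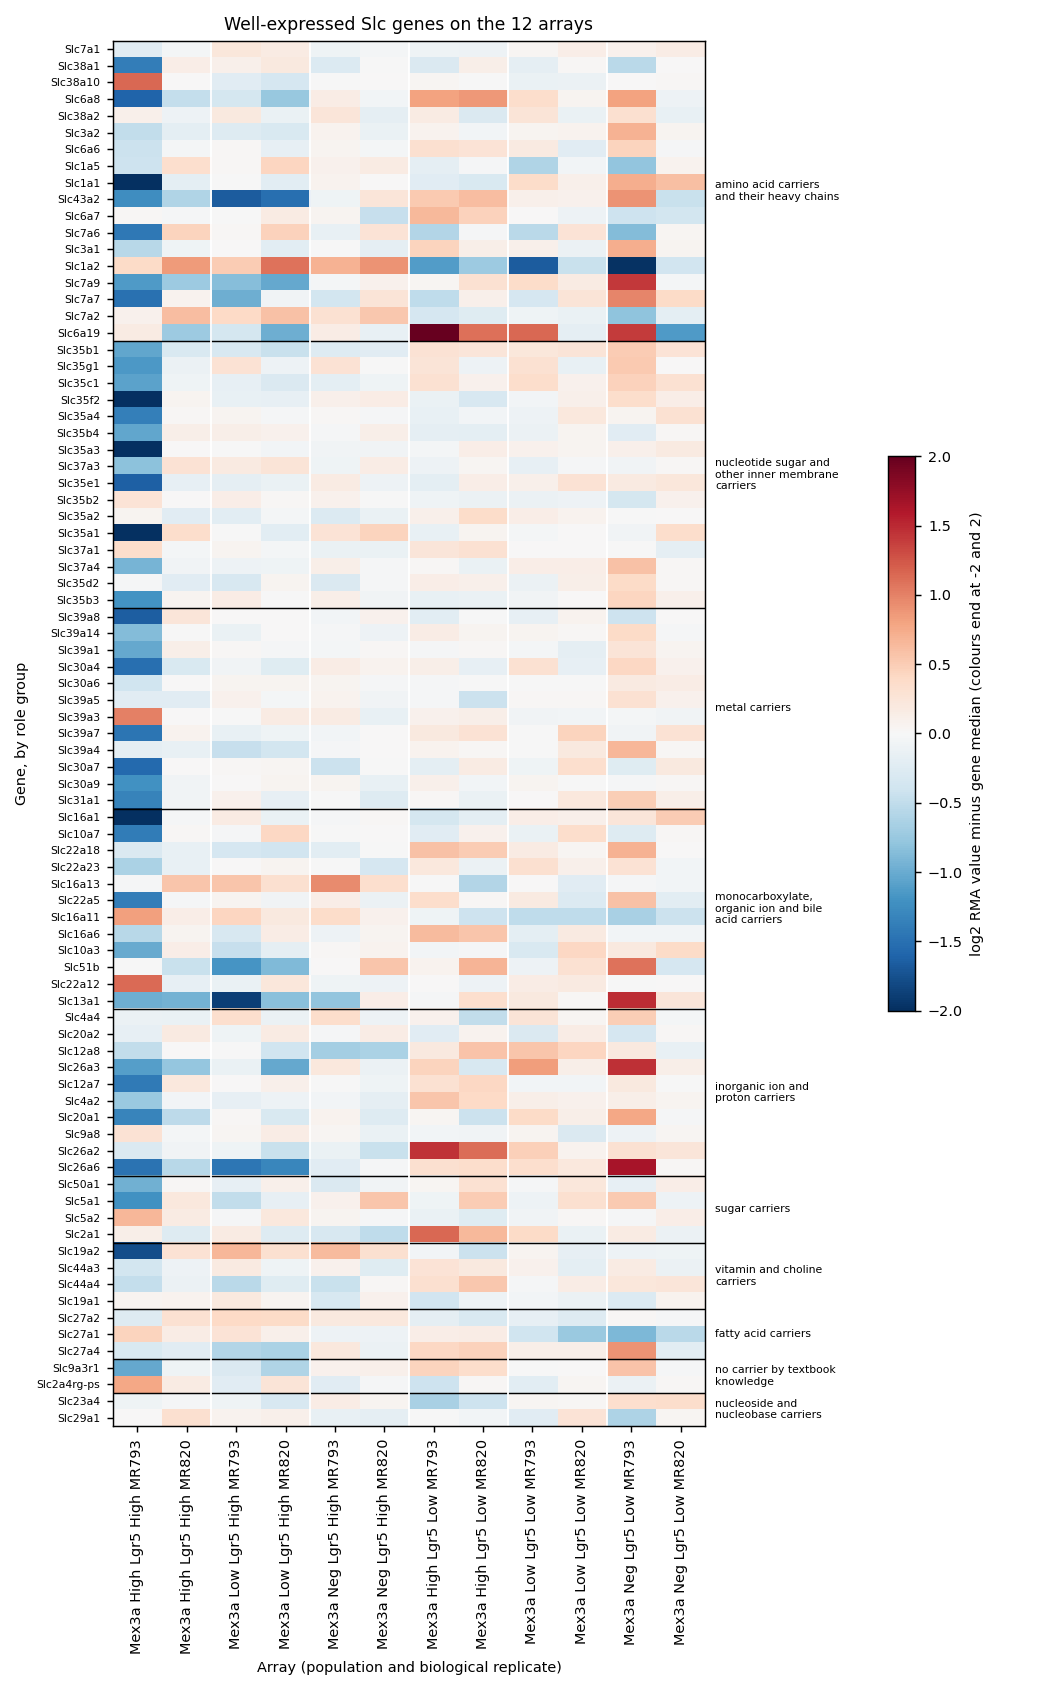
Log2 RMA value of each of the 83 Slc genes (rows, by role group) on the 12 arrays (columns, MR793 then MR820 within each population), minus the gene's own median over the arrays; blue is below and red above that median, and colours end at -2 and 2. The first column, Mex3a High Lgr5 High of MR793, is blue for most rows, with 64 of 83 members lower than on the MR820 array beside it.

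Amino acid carriers and their heavy chains made up the largest role group, with 18 members of 59 genes searched. The gene with the widest range of population means among them, and among all members, was Slc1a1, the glutamate and aspartate carrier EAAC1, with a range of 2.49. That range rests on the array that stood apart, where Slc1a1 read 5.73, while the other 11 arrays lay between 8.87 and 9.91. On the probe set used, Slc7a1 was at 10.19 to 10.64 on all 12 arrays and had a range of population means of 0.32. A further probe set of Slc7a1 had population means from 9.71 (Mex3a High Lgr5 High) to 10.55 (Mex3a Low Lgr5 Low). The glutamine and neutral amino acid carrier Slc38a2 had the narrowest range of all members on the probe sets used, 0.15. A further Slc38a2 probe set had population means from 7.19 (Mex3a High Lgr5 High, with the array that stood apart) to 8.50 (Mex3a Low Lgr5 High). Slc6a19 reached 8 through a single population: its 2 Mex3a High Lgr5 Low arrays read 8.79 and 7.77, and its values elsewhere ran from 5.53 to 8.07.

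The 16 members in the group of nucleotide sugar and other inner membrane carriers include 13 genes of the Slc35 family. Many carriers of this family, though not all, supply the endoplasmic reticulum and Golgi with sugar donors and other nucleotides. Of the 16 members, 12 were at 8 or more in all populations. The 12 metal carriers include the zinc carriers Slc39a4, Slc39a5 and Slc30a4 and the copper carrier Slc31a1, with a widest range of 1.16 for Slc30a4. Among 10 inorganic ion and proton carriers, the sodium-bicarbonate cotransporter Slc4a4 was at 10.09 to 11.08 on all arrays. The chloride and oxalate exchanger Slc26a6 had the group's widest range, 2.21. The 12 monocarboxylate, organic ion and bile acid carriers include the lactate carrier Slc16a1, the sulfate carrier Slc13a1 with a range of 2.22, and Slc51b, a subunit of the basolateral bile acid exporter; only 4 of these 12 were at 8 or more in every population. The sugar carriers were 4 genes, all at 8 or more in every population, and Slc2a1, the glucose carrier GLUT1, had the widest range, 1.32. Slc5a1 read 8.71 on the array that stood apart and 9.43 to 10.48 on the other 11. The remaining groups were 4 vitamin and choline carriers (Slc19a1, Slc19a2, Slc44a3, Slc44a4), 3 fatty acid carriers (Slc27a1, Slc27a2, Slc27a4) and 2 nucleoside and nucleobase carriers (Slc23a4, Slc29a1). No peptide carrier was among the members.

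Across the populations, 46 of the 83 members had their lowest mean in Mex3a High Lgr5 High and 31 their highest in Mex3a Neg Lgr5 Low. Without the array that stood apart, the first count was 13 and the second stayed 31. The median range of a member's population means was 0.86 with all arrays and 0.47 without that array, and 27 and 15 members had a range over 1. A range over 2 was found for 5 members in each setting.

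Between Lgr5-high and Lgr5-low cells, averaged over the 3 Mex3a gates, 5 of the 83 members passed the test across all genes (limma, Benjamini-Hochberg adjusted p under 0.05). The glutamate carrier Slc1a2 and the monocarboxylate carrier family member Slc16a11 were higher in Lgr5-high cells. The sulfate carrier Slc26a2, Slc35b1, an ATP/ADP exchanger of the endoplasmic reticulum, and the neutral amino acid carrier Slc43a2 were lower. Of all genes 1.38% passed, 0.252% higher and 1.13% lower, and of the 5936 genes that reach a level of 8 by the same rule 2.75% passed. Only Slc35b1 of the 5 was at 8 or more in all populations. In these bulk samples, fewer cells of a type and less RNA per cell cannot be told apart.

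The stretches before the start sites of 4 of these 5 genes are shown, and that of Slc26a2 is not reported here, so the comparison is incomplete. The members that moved with Lgr5 could be compared for the letters that TCF/LEF factors are known to bind. These factors act downstream of Wnt signals in crypts. Each is the 100 bases before the start site that the RefSeq promoter table gives (GRCm38.p6, plus strand), with capitals for CTTTGA or CTTTGT and for CCAAT on either strand. Slc1a2 lies at chr2:102706338-102706437, Slc16a11 at chr11:70213810-70213909, Slc35b1 at chr11:95384756-95384855 and Slc43a2 at chr11:75531594-75531693.
Slc1a2: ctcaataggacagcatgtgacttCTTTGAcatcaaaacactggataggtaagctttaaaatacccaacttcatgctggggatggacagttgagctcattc
Slc16a11: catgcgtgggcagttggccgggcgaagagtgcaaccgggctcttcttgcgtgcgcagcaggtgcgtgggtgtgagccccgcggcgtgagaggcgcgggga
Slc35b1: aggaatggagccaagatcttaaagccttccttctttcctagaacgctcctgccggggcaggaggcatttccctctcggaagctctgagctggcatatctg
Slc43a2: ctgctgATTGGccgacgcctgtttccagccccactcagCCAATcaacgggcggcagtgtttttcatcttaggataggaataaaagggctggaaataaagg
The Slc1a2 stretch holds 1 CTTTGA, and the Slc43a2 stretch holds CCAAT 2 times, once on each strand. The start site of the table lies 48199 bases inside the annotated Slc1a2 gene and 1779 bases inside Slc43a2, so these may be starts of shorter transcripts. For Slc35b1 it coincides with the annotated start of the gene, and for Slc16a11 it lies 215 bases from that start. In this window, 11.2% of 27025 promoters and 6 of the 65 members with an entry (9.23%) hold CTTTGA or CTTTGT, and 19.6% and 15.4% hold CCAAT. A match is a description of these letters only, and the share among the members is close to that among all promoters.

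Slc1a2, also known as GLT-1, showed the largest difference. In Lgr5-high cells its values were 8.65 and 9.13 (MR793 and MR820) with Mex3a high, 8.78 and 9.35 with Mex3a low, and 8.96 and 9.17 with Mex3a negative. In Lgr5-low cells they were 7.15 and 7.54, 6.61 and 7.83, and 6.30 and 7.89. All 6 Lgr5-high arrays lay above all 6 Lgr5-low arrays, and MR793 minus MR820 was -1.59 in Mex3a Neg Lgr5 Low. The difference was 1.79 ± 0.30 (log2, SE; limma adjusted p = 0.0247), 2.11 in MR793 and 1.46 in MR820, and a further, dimmer probe set of the gene gave 1.79.

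Slc16a11 read 9.07 and 8.38, 8.68 and 8.45, and 8.62 and 8.33 in Lgr5-high cells with Mex3a high, low and negative, and 8.17 and 7.83, 7.75 and 7.74, and 7.61 and 7.81 in Lgr5-low cells. The groups did not overlap, and the difference was 0.77 ± 0.15 (limma adjusted p = 0.0434). Its neighbour on chromosome 11, Slc16a13, a further monocarboxylate carrier family member, differed by 0.59 ± 0.17 (limma adjusted p = 0.182) and did not pass; its arrays overlapped, with the array that stood apart at 8.26.

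Slc26a2 read 7.50 and 7.72, 7.70 and 7.35, and 7.66 and 7.34 in Lgr5-high cells, and 9.23 and 8.91, 8.26 and 7.86, and 8.09 and 8.03 in Lgr5-low cells, in the same order of Mex3a gates. The groups did not overlap, and the highest values were those of Mex3a High Lgr5 Low. The difference was -0.85 ± 0.14 (limma adjusted p = 0.0160).

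Slc35b1 had 6 Lgr5-high values of 9.95 to 10.77 (median 10.67) and 6 Lgr5-low values of 11.21 to 11.50 (median 11.25). The groups did not overlap, and the lowest value was that of the array that stood apart. The difference was -0.73 ± 0.12 (limma adjusted p = 0.0247).

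Slc43a2, also known as LAT4, ran from 7.56 to 9.45 (median 8.30) in Lgr5-high and from 8.77 to 10.12 (median 9.53) in Lgr5-low cells. These groups overlapped, because both Mex3a Neg Lgr5 High arrays, at 9.13 and 9.45, lay above the lowest Lgr5-low array, Mex3a Neg Lgr5 Low of MR820. The difference was -1.11 ± 0.22 (limma adjusted p = 0.0496), and a replicate block gave a limma adjusted p of 0.0564, so the call was lost (0.00171 to 1.00 over all alternatives). Its other probe sets gave -1.14 and -0.81.

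**Figure D2:**
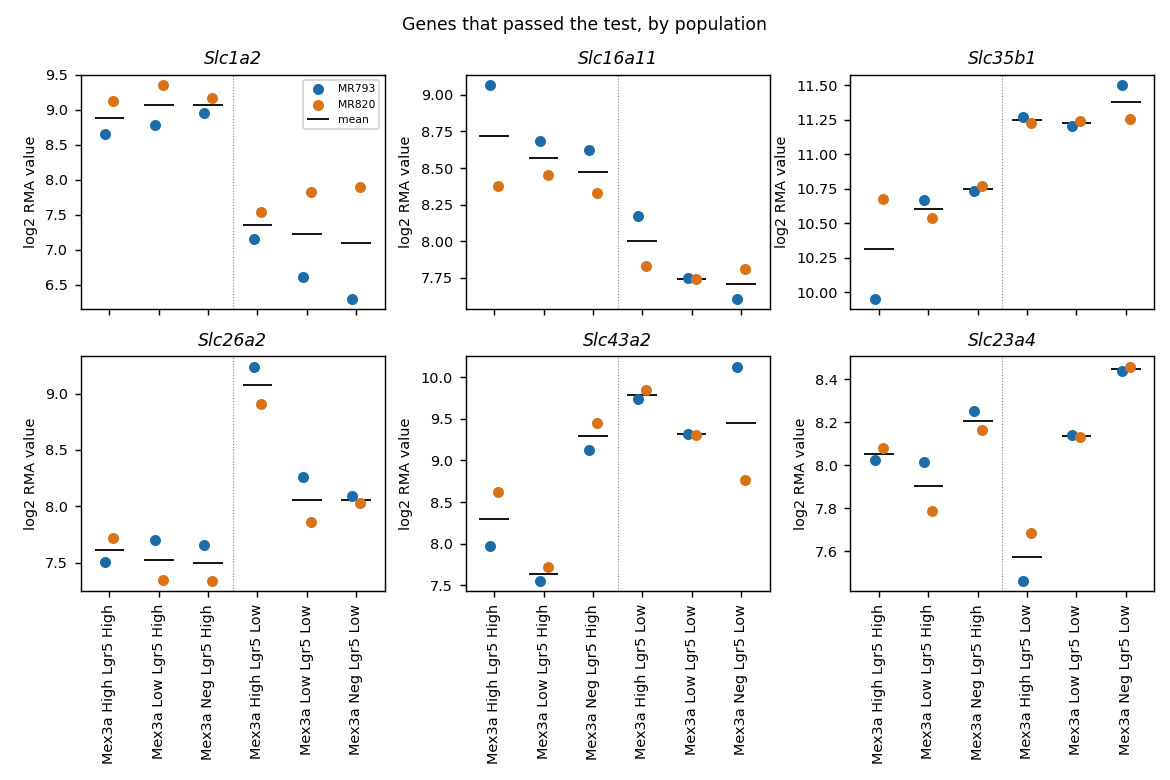
Log2 RMA values of the 6 Slc genes that passed a test, by population (points for MR793 in blue and MR820 in orange, line for the mean of n = 2; the value axes differ and do not start at 0). Slc1a2 and Slc16a11 lie higher on the Lgr5-high side at the left of the dotted line, Slc26a2, Slc35b1 and Slc43a2 on the Lgr5-low side, and Slc23a4 is lowest in Mex3a High Lgr5 Low, at 7.46 and 7.69.

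The strips bear on this comparison. Within strip 2 alone, with 2 arrays on each side, the difference was 1.46 for Slc1a2, 0.57 for Slc16a11, -0.86 for Slc26a2, -0.51 for Slc35b1 and -0.54 for Slc43a2, each in the direction found with all arrays. Strip 2 holds MR820 arrays only, Mex3a high and negative for Lgr5-high cells and Mex3a high and low for Lgr5-low cells. The Mex3a gates are therefore not balanced in it, unlike in the difference averaged over all Mex3a gates. With the strip as a block the differences were 1.48, 0.56, -0.65, -0.47 and -0.81, and with the limma adjusted p = 0.9998 none of the 5, and none of all genes, passed. The other strips hold 1 Lgr5 gate each, so there the strip and the gate cannot be told apart.

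Markers of other cell types moved between the Lgr5 gates as well. In Lgr5-low cells 8 of 9 measured tuft cell markers, 8 of 14 enteroendocrine markers, 3 of 8 goblet markers and 1 of 11 enterocyte markers were higher by the same limma test, and in Lgr5-high cells 6 of 9 stem cell markers were higher. The mean level of the tuft list was 5.17 to 7.10 on Lgr5-high and 5.43 to 10.31 on Lgr5-low arrays, and that of the enterocyte list 8.50 to 10.31 and 9.44 to 11.12. The part of these cell types in the difference of each Slc gene was not tested.

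Several members came close to the threshold. The creatine carrier Slc6a8 gave -0.98 (limma adjusted p = 0.0743), Slc26a6 -1.32 (0.0516), Slc13a1 -1.26 (0.0629), Slc12a8 of the cation-chloride cotransporter family -0.67 (0.0529) and the cationic amino acid carrier Slc7a2 0.72 (0.0549). The arrays of the 2 Lgr5 gates did not overlap for 9 members: Slc1a2, Slc16a11, Slc26a2, Slc35b1, Slc26a6, Slc7a2, Slc22a18, Slc35c1 and Slc4a2. There were 13 without the array that stood apart. The share of all genes without overlap was not counted, so neither number has a background beside it. At an unadjusted p under 0.05 there were 29 of the 83 members, against 11.6% of all genes, and 37 without that array, against 20.3%. When only the genes that reach a level of 8 were fitted, with all 12 arrays, there were again 29, against 17.5% of those genes.

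Without the array that stood apart 18 members passed, 7 higher and 11 lower in Lgr5-high cells, against 5.12% of all genes and 9.75% of those that reach a level of 8; 10 of the 18 were at 8 or more in all populations. All 5 genes above were among them. The others that were higher are the fatty acid carriers Slc27a2 (0.45) and Slc27a1 (0.46), the thiamine carrier Slc19a2 (0.55), Slc16a13 (0.69) and Slc7a2 (0.81). With all 12 arrays, a further, dimmer probe set of Slc27a1 gave 0.05 where the one used gave 0.51. Further probe sets of Slc7a2 gave 0.58, 0.13 and 0.63 where the one used gave 0.72. The others that were lower are Slc13a1 (-1.26), Slc26a6 (-1.16), Slc6a8 (-0.79), Slc12a8 (-0.58), Slc22a18 (-0.54), Slc44a4 (-0.48), the GDP-fucose carrier Slc35c1 (-0.42) and the anion exchanger Slc4a2 (-0.32). Of the 3 fatty acid carriers, Slc27a4 pointed the other way, with -0.57 on all 12 arrays, and did not pass.

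The count of 5 depended on single arrays. It was 60 without the MR820 array of Mex3a High Lgr5 High, which leaves the array that stood apart as that population's only one; 54.5% of all genes and 59.3% of those that reach a level of 8 passed then. It was 11 without the MR820 array of Mex3a Neg Lgr5 Low (1.91% of all genes) and 2 without the MR820 array of Mex3a Low Lgr5 Low (2.00% of genes that reach a level of 8). It was 1 without Mex3a Low Lgr5 High MR793, Mex3a Neg Lgr5 High MR793, Mex3a Neg Lgr5 Low MR793 or Mex3a High Lgr5 Low MR820 (1.38% to 1.60% of genes that reach a level of 8). It was 0 without Mex3a High Lgr5 Low MR793, Mex3a Low Lgr5 Low MR793, Mex3a Low Lgr5 High MR820 or Mex3a Neg Lgr5 High MR820. With the replicate as a block 7 members passed, against 2.04% of all genes and 4.08% of those that reach a level of 8: Slc1a2, Slc16a11, Slc26a2, Slc35b1, Slc7a2, and Slc2a1 and Slc44a4, both lower in Lgr5-high cells. With that block and without the array that stood apart the count was 31, against 11.4% of all genes and 22.1% at that level, and when only the genes at that level were fitted it was 10, against 3.72% of them.

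As a group the members leaned towards the Lgr5-low cells: 21 of 83 differences were positive and the median was -0.30, against a median of -0.11 over the genes that reach a level of 8 and 0.04 over all genes. Without the array that stood apart 26 of 83 were positive and the median was -0.11 for the members and 0.01 for the genes at that level. With the strip as a block the members' median was -0.01. By role, the median was -0.48 over the inorganic ion and proton carriers (-0.36 without that array), -0.27 over the metal carriers (-0.08), -0.17 over the amino acid carriers (-0.14) and 0.36 over the 3 fatty acid carriers (0.45).

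**Figure D3:**
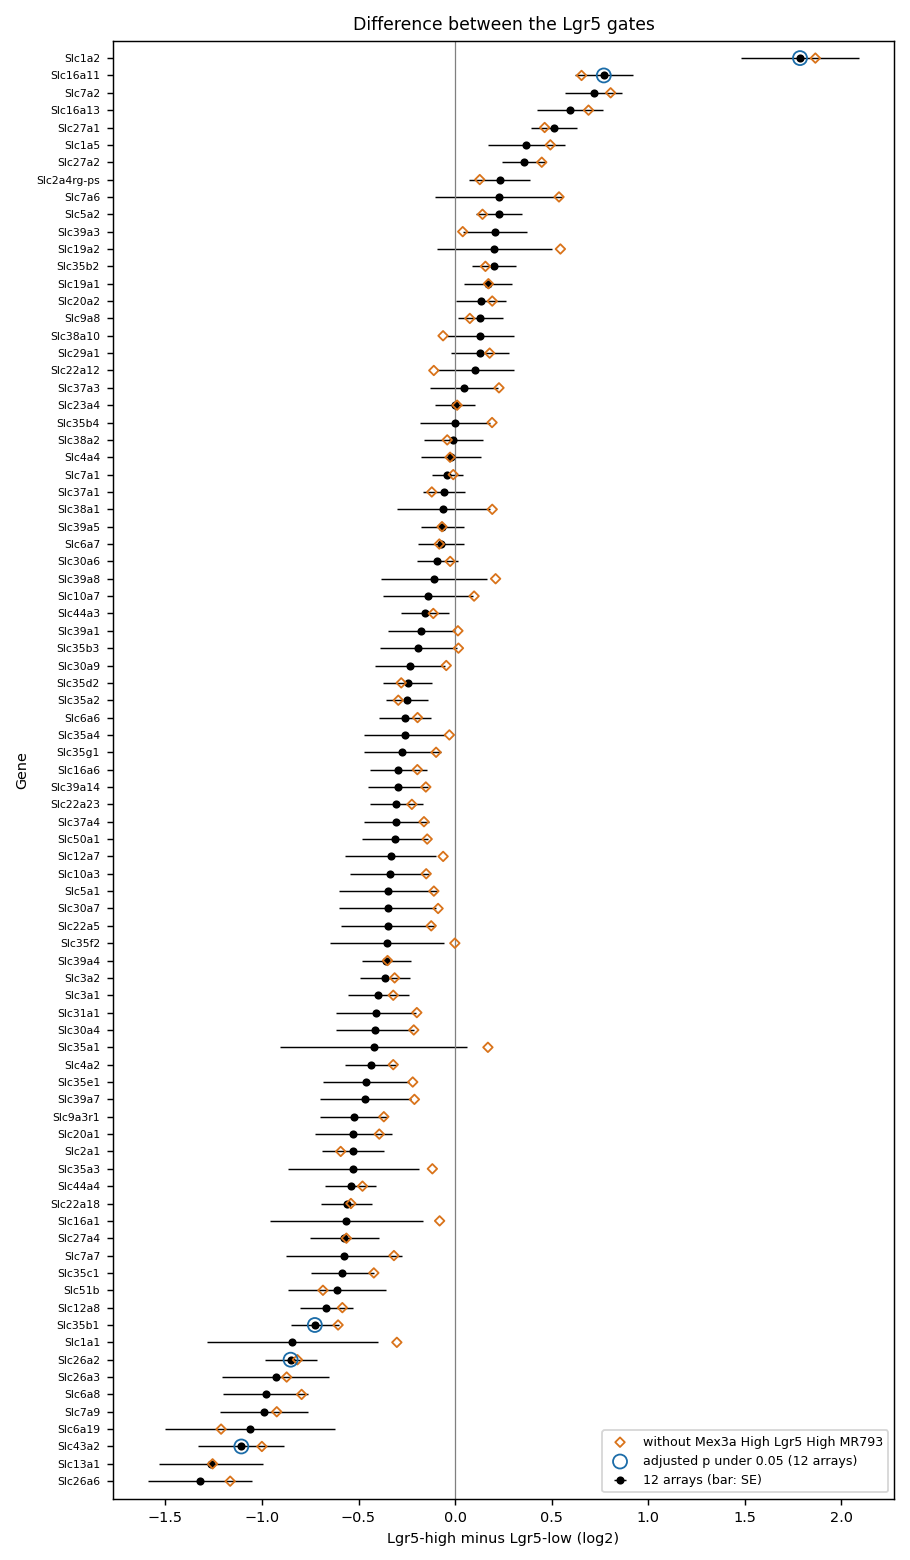
Difference between Lgr5-high and Lgr5-low cells (log2, averaged over the Mex3a gates) for each of the 83 Slc genes, with all 12 arrays (black points, bars of 1 SE), and without the array that stood apart (orange diamonds); blue rings mark the 5 genes with a limma adjusted p under 0.05. Slc1a2 stands apart at 1.79, and many diamonds in the middle of the plot lie nearer to 0 than their points.

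Within Lgr5-low cells, Mex3a-high was compared with Mex3a-negative. Of the members, 1 passed: the nucleobase carrier Slc23a4 was lower with Mex3a high, while the call rate was 1.73% over all genes and 0.0117% for lower genes. Slc23a4 was at 8 or more in only some populations, with a mean of 7.57 in Mex3a High Lgr5 Low. The rule for members favoured this difference, so the call is described and not counted as support. The values of Slc23a4 were 7.46 and 7.69 with Mex3a high, 8.14 and 8.13 with Mex3a low, and 8.44 and 8.46 with Mex3a negative (MR793 and MR820). The 3 gates did not overlap and followed the order of the gates. The difference between Mex3a high and negative was -0.87 ± 0.18 (limma adjusted p = 0.0456), -0.97 in MR793, whose arrays share a strip, and -0.77 in MR820. This call was lost without any 1 of the 10 arrays other than the Mex3a High Lgr5 High pair, after quantile normalization and with the strip as a block, when 0 members passed.

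Among the carriers with a similar difference upwards, none passed with all 12 arrays. The proline carrier Slc6a7 read 9.34 and 9.16 with Mex3a high, 8.70 and 8.59 with Mex3a low and 8.28 and 8.32 with Mex3a negative, a difference of 0.95 ± 0.21 between high and negative (limma adjusted p = 0.0621). Slc26a2 gave 1.01 ± 0.23 (limma adjusted p = 0.0817) from 9.23 and 8.91 against 8.09 and 8.03, and passed with the replicate as a block (limma adjusted p = 0.0449; 0.000241 to 0.688 over all alternatives). The fatty acid carrier Slc27a1 read 9.03 and 9.05 against 8.00 and 8.36, a difference of 0.86 ± 0.21 (limma adjusted p = 0.0979). Slc2a1 read 9.98 and 9.47 against 8.99 and 8.70; its difference of 0.88 ± 0.28 had a limma adjusted p of 0.291, and of 0.0314 with the replicate as a block (0.000494 to 1.00 over all alternatives), under which 3 members passed, Slc23a4, Slc26a2 and Slc2a1, against 2.03% of all genes. When only the genes that reach a level of 8 were fitted, 2 members passed, against 2.83% of them. The arrays of Mex3a high and negative did not overlap for any of these genes.

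Without the array that stood apart, which belongs to the Lgr5-high gate and acts here only through the estimate of the spread, 6 members passed, 3 higher and 3 lower, against 5.29% of all genes and 7.90% of those that reach a level of 8. They were Slc6a7, Slc26a2 and Slc27a1, higher, and Slc23a4, Slc1a1 and Slc16a1, lower. Of these, Slc6a7, Slc27a1 and Slc16a1 were at 8 or more in all populations on the 12 arrays, the others in only some. Slc1a1 read 8.95 and 8.87 with Mex3a high and 9.91 and 9.78 with Mex3a negative, a difference of -0.93. Slc16a1, the lactate and butyrate carrier MCT1, read 9.96 and 10.11 against 10.54 and 10.81, a difference of -0.64. A second probe set of Slc1a1 gave -1.03. A count of 6 was also found without the MR820 array of Mex3a High Lgr5 High (5.31% of all genes). With the replicate as a block and without the array that stood apart 16 members passed, against 11.9% of all genes and 20.6% of those that reach a level of 8.

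The 2 Mex3a Neg Lgr5 Low arrays differed from each other. 9 members were more than 1 apart there, against 0 to 2 in the other populations besides Mex3a High Lgr5 High. Slc6a19 was 2.54 higher in MR793 than in MR820 (8.07 and 5.53), Slc26a6 1.63, Slc7a9 1.46, Slc51b 1.42, Slc26a3 1.35, Slc43a2 1.35, Slc13a1 1.24 and Slc27a4 1.11, while the same difference was -1.59 for Slc1a2. Slc6a19, Slc7a9, Slc26a3 and Slc51b are known as carriers of absorptive enterocytes. The enterocyte marker list, 11 of 13 genes measured, stood at a mean level of 11.12 in MR793 and 9.44 in MR820, the highest and the fourth lowest of the 12 arrays; its part in these values was not tested. In the comparison of Mex3a high with negative, Slc6a19 was the member with the largest difference, 1.48 ± 0.76 (limma adjusted p = 0.935), with 0.72 in MR793 and 2.24 in MR820.

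Some secretory markers also separate these 2 Mex3a gates. By the same test, 9 of 9 tuft, 11 of 14 enteroendocrine and 3 of 6 Paneth markers were higher with Mex3a high. The goblet list did not go one way: it stood at 10.33 and 10.54 with Mex3a high and at 10.92 and 10.29 with Mex3a negative (MR793 and MR820). Of the enterocyte markers, 0 of 11 passed, with a median of -0.70 in MR793 and 0.99 in MR820. The tuft list stood at 10.31 and 10.28 with Mex3a high and at 5.43 and 5.45 with Mex3a negative. The part of these cells in the Slc values was not tested.

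Between Mex3a high and Mex3a low within Lgr5-low cells, 0 members passed with all 12 arrays (limma), against 0.889% of all genes. At an unadjusted p under 0.05 there were 6 members, against 4.66% of all genes. Slc26a2 was nearest, with 1.01 ± 0.23 (limma adjusted p = 0.129), 0.97 in MR793 and 1.05 in MR820; without the array that stood apart its limma adjusted p was 0.0291 (0.000431 to 1.00 over all alternatives) and it was the only member to pass, against 2.46% of all genes. A count of 1 was also found without the MR820 array of that population (2.45% of all genes), and 9 with the replicate as a block and without the array that stood apart (5.23% of all genes and 8.63% at level 8). Slc27a1 gave 0.71, Slc6a7 0.60 and Slc23a4 -0.56, and for all 4 the Mex3a-low mean lay nearer to the Mex3a-negative than to the Mex3a-high mean.

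Between Mex3a low and negative within Lgr5-low cells 0 members passed (limma), against 0.0468% of all genes. At an unadjusted p under 0.05 there were 0 members, against 1.18% of all genes. Slc12a8 gave 0.46 ± 0.24, Slc6a7 0.35 ± 0.21, Slc23a4 -0.31 ± 0.18 and Slc13a1 -0.75 ± 0.47, all with a limma adjusted p of 1.00.

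Within Lgr5-high cells, 0 members and 0% of all genes passed in any of the 3 comparisons of Mex3a gates (limma). At an unadjusted p under 0.05 there were 8 members for Mex3a high against negative, 4 for high against low and 4 for low against negative. The shares of all genes at that unadjusted p were 3.87%, 3.63% and 0.462%, in the same order. The first 2 of these comparisons use the array that stood apart. Slc1a1 read 5.73 and 8.97 with Mex3a high and 9.24 and 9.18 with Mex3a negative, so its difference of -1.86 ± 0.77 (limma adjusted p = 0.505) was -3.51 in MR793 and -0.21 in MR820. The zinc carrier Slc30a4 gave -1.66 and -0.38 and Slc6a8 -1.75 and -0.42. Slc43a2 was more even, with -1.15 and -0.84. For Mex3a high against low, Slc38a10, a member of the system A and N amino acid carrier family, gave 1.38 and 0.34, Slc19a2 gave -2.43 and -0.05, the phosphate carrier Slc20a1 -1.34 and -0.22 and Slc7a1 -0.45 and -0.20. Further probe sets of Slc38a10 went both ways between these populations. A mean of 7.14 with Mex3a high stood against 8.35 with Mex3a low for a probe set, and 8.87 against 8.17 for another. Without the MR820 array of Mex3a High Lgr5 High, 49 members passed for Mex3a high against negative and 44 for high against low, with the array that stood apart as the only one of its population. Of all genes 62.3% and 60.7% passed then, and of those that reach a level of 8 66.6% and 65.4%, so the members passed no more often than genes in general. The counts were 0 and 0 without the array that stood apart.

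Mex3a low against negative within Lgr5-high cells uses neither of these arrays. Slc43a2 read 7.56 and 7.71 with Mex3a low against 9.13 and 9.45 with Mex3a negative, a difference of -1.66 ± 0.39. Slc51b read 6.79 and 7.09 against 7.98 and 8.54, a difference of -1.32 ± 0.44. Slc26a6 gave -1.25 ± 0.47 and Slc7a9, the cystine and dibasic amino acid carrier, -0.97 ± 0.39. Both replicates went the same way for all 4 and their arrays did not overlap, but the limma adjusted p was 1.00 for each. The enterocyte list stood at 8.50 and 8.63 with Mex3a low and at 10.31 and 10.13 with Mex3a negative, and its part in these 4 values was not tested.

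**Figure D4:**
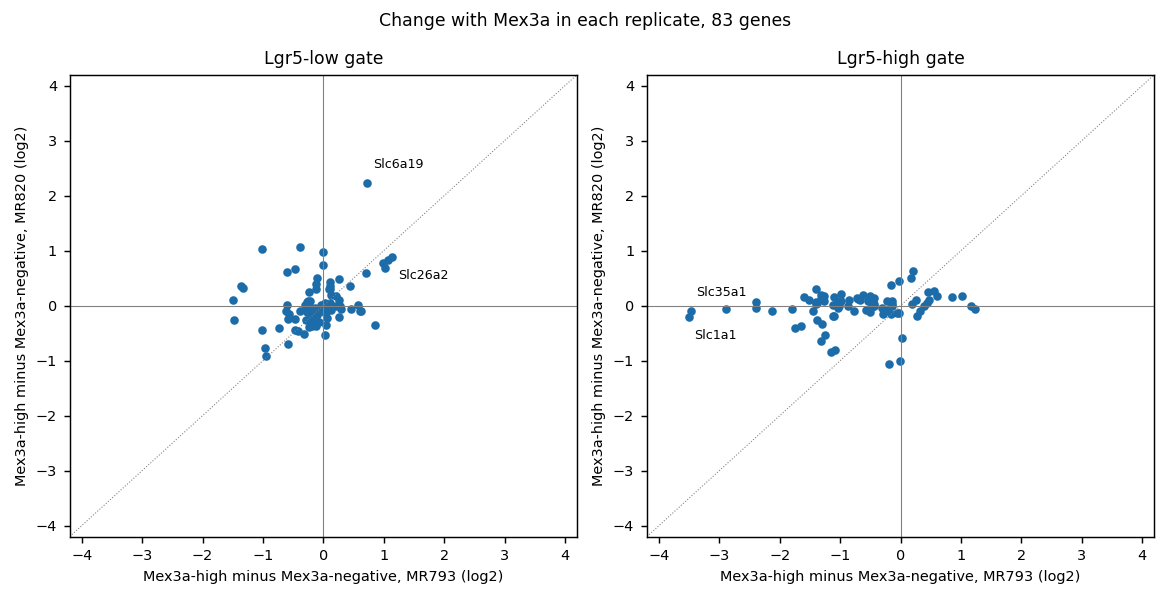
Change from Mex3a negative to Mex3a high (log2) in MR793 (horizontal axis) and MR820 (vertical axis) for the 83 Slc genes, in Lgr5-low cells (left) and Lgr5-high cells (right); the dotted line marks equal change, and the 2 genes with the largest mean change are named. In Lgr5-high cells the points spread along the horizontal axis, down to -3.51 for Slc1a1, while most MR820 values lie nearer to 0.

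Whether the change from Mex3a negative to Mex3a high differs between the Lgr5 gates was tested as an interaction. 0 members passed (limma), against 0.398% of all genes. At an unadjusted p under 0.05 there were 6 members, against 3.71% of all genes. The largest of the named differences between gates was that of Slc6a8, 1.56 ± 0.54, followed by Slc26a2 with 0.90 ± 0.33, Slc6a7 with 0.74 ± 0.29 and Slc23a4 with -0.72 ± 0.25, each with a limma adjusted p of 0.865. With the array that stood apart left out these were, for the genes in this order, 1.00, 0.79, 0.76 and -0.74. Without the MR820 array of Mex3a High Lgr5 High 42 members passed, against 48.6% of all genes and 55.4% of those that reach a level of 8. With a block for the replicate and without the array that stood apart, 1 member passed, against 1.81% of all genes: Slc1a1, with -0.77 (limma adjusted p = 0.0303; 6.15e-05 to 0.967 over all alternatives). Its sign turned with that array, since the difference between gates was 0.93 with all 12 arrays.

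Transport genes outside the Slc rule were set beside the members: pumps, channels, aquaporins, ATP-binding cassette and Slco carriers, uptake and binding proteins for lipids, metals and vitamins, and partner or scaffold proteins, with 37 of 41 measured. Between the Lgr5 gates 2 of the 37 passed, both lower in Lgr5-high cells: the cholesterol uptake protein Npc1l1 (-1.20, limma adjusted p = 0.026) and the organic anion exporter Abcc3 (-0.80, 0.049). When the array that stood apart was left out 6 passed: these genes and Slco2a1 (-0.64) were lower, and the water channels Aqp1 (0.53) and Aqp4 (0.75) and the chloride channel Cftr (0.60) were higher. Between Mex3a high and negative in Lgr5-low cells 1 passed, the prostaglandin carrier Slco2a1, higher with 1.42 (limma adjusted p = 0.010). Without that array 3 passed: Slco2a1, the amino acid carrier partner Cltrn, higher with 1.28, and Cftr, lower with -0.75. Their median difference between the Lgr5 gates was -0.16, with 11 of 37 positive, beside -0.30 and 21 of 83 for the members, and -0.19 with 13 of 37 positive without that array.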

How the data were processed

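The table the authors deposited holds 1 normalized log2 value per probe set and array. It was made with RMA, a method that corrects background, normalizes between arrays and summarises probes (per the submitters' processing notes); its version is not given in the sources used here and no brightness values were reprocessed. Each of the 12 columns matched 1 sample by name. Of 45141 probe sets, 28898 had a single gene symbol in the platform annotation, 551 had several and 15692 were not listed; only the first kind was used, which gave 17097 genes.

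The Slc members, gene lists and named genes were chosen with earlier results of these data known. Named genes are the members that passed and, where fewer than 4 did, up to 4 with the smallest p, per comparison. Also named by rule are the member of the highest mean level and the member of the widest range in each role group. So are the genes next to the threshold, members that are no carriers or sit on inner membranes, and Mex3a and Lgr5. Other genes were named after their values were seen. Each gene was fitted with limma 3.58.1 in R 4.3.3 as 6 population means with no block, eBayes with a variance trend, and Benjamini-Hochberg adjustment over 17097 genes; the script was tested on simulated data. SE is limma's moderated standard error. With n = 2 arrays per population, the number of arrays limits precision.

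MR793 and MR820 pair the populations: over 15 pairs of populations the replicate differences correlated at -0.115 to 0.566 (14 over 0.1), and at 0.374 to 0.566 over the 10 pairs without the array that stood apart. The labels call them biological replicates and do not say whether each is 1 mouse. The alternatives were a replicate block, a strip block, quantile normalization, common centring, averaged probe sets, only genes at level 8, no trend, 1 gate at a time, and each array left out; the replicate block without the array that stood apart, and the values within strip 2, were added after seeing the data.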

Additional observations from a re-analysis of the deposited data

Results flagged for a closer look

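For 3 members the change from Mex3a negative to Mex3a high had one sign in both replicates of the Lgr5-low gate and the other sign in both replicates of the Lgr5-high gate. Slc16a6, a monocarboxylate carrier family member, changed by 0.70 and 0.60 in the Lgr5-low gate and by -0.45 and -0.00279 in the Lgr5-high gate, and the difference between gates was 0.873. Slc44a4, a choline and thiamine pyrophosphate carrier, changed by 0.09 and 0.30 and by -0.03 and -0.14, a difference of 0.282. Slc5a2, the sodium-glucose carrier best known from the kidney, changed by -0.12 and -0.36 and by 0.61 and 0.18, a difference of -0.634. The interaction did not pass for any of them (limma adjusted p = 0.865 for each).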

How the results depend on the processing

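The number of members was 123 at a threshold of 7, 54 at 9, 71 with averaged probe sets and 83 without the array that stood apart. Between the Lgr5 gates 5 members passed; the count was 0 with the strip as a block, 10 over genes at level 8 only (3.72% of them), 31 with the replicate as a block and without the array that stood apart (22.1% of genes at level 8), and 0 to 60 with each array left out. Between Mex3a high and negative in Lgr5-low cells 1 passed. The count was 3 with the replicate as a block (3.29% of genes at level 8) and 0 with the strip as a block or after quantile normalization. It was 2 with averaged probe sets (2.83%), over genes at level 8 only (2.83%) or without a variance trend (2.96%). With arrays of 1 Lgr5 gate it was 4 (4.53%). It was 16 with the replicate block without the array that stood apart (20.6% of genes at level 8), and 0 to 6 with each array left out. Between Mex3a high and low in Lgr5-low cells the counts were 9 with that last block (8.63%) and 0 to 1 with each array left out. In Lgr5-high cells they were 0 to 49 for Mex3a high against negative and 0 to 44 for high against low with each array left out. For the interaction they were 1 with that last block (2.86%), where Slc1a1 turned from 0.93 to -0.77, and 0 to 42. The replicate block changed no other call than those given. Of 33 named changes under 689 settings in all, 0 reversed, 63 fell below the threshold and 33 rose above it. Common centring moved the median of all genes from -0.01 to -0.11 between Mex3a high and negative in Lgr5-low cells. RMA values compress differences of dim probe sets.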
